A study of Mus musculus with 36 samples.

Results

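The transcriptional response of wild-type mouse embryonic fibroblasts (MEFs) to dexamethasone (Dex), a synthetic glucocorticoid, was described within the first of the series' 2 runs. The 6 libraries whose labels give the genotype GRwt/wt and run 1 were taken out of 36 in all, 3 treated with 1 µM Dex for 5 h and 3 with vehicle for the same time. MEFs are primary fibroblasts, here grown from mid-gestation embryos after removal of head and organs, and every library is labelled as FVB/NJ. For the mice that carry the GR knockout the study's methods give a 129/SvJ background instead, so that strain may also differ in the comparison with GRko/ko. The study compared GRwt/wt with cells carrying mutant glucocorticoid receptors, and it describes 3 primary cultures per genotype, each from a different mouse. Comparisons are given below with the GRko/ko libraries of run 1, which lack a functional receptor and received the same vehicle and Dex treatments, and with the 3 vehicle and 3 Dex libraries of GRwt/wt from run 2.

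The glucocorticoid receptor (GR), encoded by Nr3c1, waits in the cytoplasm in a complex with heat shock proteins and co-chaperones such as Fkbp5, and moves to the nucleus once it binds its ligand. There it binds palindromic DNA elements and raises target genes, and it restrains genes driven by other factors such as NF-kB and AP-1. In fibroblasts glucocorticoids are known for lowering inflammatory mediators and for changing the extracellular matrix that these cells secrete.

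The 6 libraries held 15280166 to 18458813 read counts each, and 14817 genes passed the filter on low counts and were tested. Values are read counts after scaling between libraries, in CPM, counts per 1000000 counts of a library. The 14 fibroblast markers, among them collagens and Vim, were all detected, with a summed level of 45600 to 49400 CPM. Of 9 endothelial and of 9 epithelial markers, 6 and 7 stayed under 1 CPM in every library, and all 6 erythroid markers did. Among the markers above that level, Kdr, a receptor of endothelial growth factor, rose with Dex by 0.91 on the log2 scale (edgeR adjusted p = 5.93e-07). Kdr stood at 6.73, 7.55 and 8.88 CPM with vehicle and at 15.4, 14.7 and 13.5 CPM with Dex. It was the only 1 of 5 tested endothelial markers that rose, and 0 fell. The summed endothelial level, 11.1 to 14 CPM with vehicle and 18.4 to 20.5 CPM with Dex, thus mainly reflects Kdr. Krt18, an epithelial keratin, fell by 0.82 and Nes, the neural progenitor filament nestin, fell by 0.47 on the log2 scale. Nes stood at 346, 332 and 364 CPM with vehicle and at 251, 244 and 259 CPM with Dex. It was the only 1 of 6 tested neural markers that fell, and 0 rose. The summed neural level, 408 to 441 CPM with vehicle and 324 to 344 CPM with Dex, thus mainly reflects Nes. The summed level of 12 macrophage markers was 215, 341 and 193 CPM in vehicle replicates 1 to 3 and 204, 223 and 333 CPM in Dex replicates 1 to 3. Macrophage RNA was thus highest in vehicle replicate 2 and Dex replicate 3, and of these markers Mrc1 rose with Dex (log2 fold change 0.64, adjusted p = 0.0425 from edgeR). The part of any such cells in the results below was not tested, and in bulk RNA fewer cells of a type and less RNA per cell cannot be told apart.

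All 6 libraries had the RNA profile of female cells, with Xist at 214 to 262 CPM of total counts and 4 Y-linked genes together at 0.0621 to 1.91 CPM. In the GRwt/wt libraries of run 2, Xist stood at 0 to 0.122 CPM and the Y-linked genes at 235 to 314 CPM, and in the GRko/ko libraries of run 1 at 1.02 to 14.2 and at 136 to 153 CPM. Both sets thus had the profile of male cells, so that sex cannot be told apart from run or genotype in those comparisons. Whether the GRwt/wt cultures of run 1, all of one sex, came from separate embryos was not tested, and if they did not, the SDs and p-values measure technical spread. Dex replicates 2 and 3 held 32 and 29 counts of the Y-linked genes, against 1 to 5 in the other 4 libraries, and Ddx3y and Eif2s3y passed the thresholds for raised genes at these counts (log2 fold changes 2.75 and 2.64) although their groups overlap.

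Vehicle replicate 2 stood apart from the other vehicle libraries. Over the 302 genes that Dex raised in run 2 and that were tested here as well, it lay 0.117 above them on the log2 scale (median over genes), and it was the highest vehicle library for 51.0% of these genes. Over all tested genes its difference was 0. The main counts are given below with and without it.

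Dex raised 183 genes and lowered 110 in run 1, a total of 293, at an adjusted p of at most 0.05 and at least a doubling or its inverse (absolute log2 fold change of at least 1). These were 1.24% and 0.742% of the genes tested. The test was edgeR's quasi-likelihood test over the 24 libraries of run 1. Without the limit on size, 1204 genes rose (8.13%) and 951 fell (6.42%), and "rose" and "fell" have that meaning below, while "raised" and "lowered" include the limit. Without vehicle replicate 2, 205 genes were raised and 96 lowered, and 244 of the 293 were called again. The p-values measure only the spread between these libraries.

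The median log2 fold change was 1.48 over the raised genes and -1.32 over the lowered genes, against -0.0015 over all tested genes. A change of at least 2 on the log2 scale was found in 42 raised and 17 lowered genes. Many called genes were weakly expressed. A mean of under 50 counts per library was found in 82 raised and 77 lowered genes, together 54.3% of the called genes, against 25.5% of the genes tested. All 3 Dex values lay above all 3 vehicle values in 177 of the 183 raised genes, and below them in 108 of the 110 lowered genes. Over all tested genes that held for 17.1% upward and 15.6% downward. Of the called genes 166 raised and 92 lowered are annotated as protein coding.

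**Figure D1:**
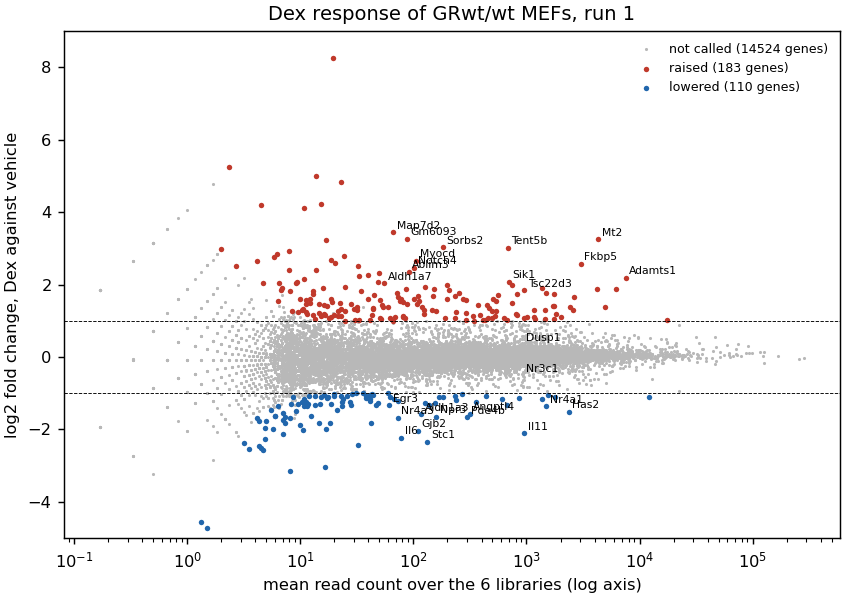
Each point is a tested gene, with its mean read count over the 6 libraries on a log x axis and the log2 fold change of Dex against vehicle on the y axis. Dashed lines mark a log2 fold change of 1 and -1, red points are the 183 raised and blue points the 110 lowered genes, and the largest fitted changes lie at low counts, where a group can hold 0 counts.

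Nr3c1, the gene of the receptor itself, fell with Dex. It stood at 64.5, 66.3 and 71.1 CPM in vehicle replicates 1 to 3 and at 48.0, 45.9 and 46.4 CPM in Dex replicates 1 to 3. The groups did not overlap, and the level with Dex was 69.5% of that with vehicle (log2 fold change -0.52 ± 0.062 (SE), edgeR adjusted p = 2.39e-07). Genes are grouped from here on by function lists, of which members that were not called, or not among the strongest called, were picked with their values in view. Over all tested genes 8.13% rose and 6.42% fell, the shares to set beside the counts of each list. Of 16 genes for the receptor, its chaperones and co-chaperones, 3 rose, 2 fell and 11 did not pass. Fkbp5, a co-chaperone that lowers the receptor's affinity for ligand, rose from 52.0 ± 10.9 to 310 ± 7.1 CPM (mean ± SD, n = 3 each). Hspa8, a constitutive Hsp70 chaperone, rose by 0.51 and Stip1, which links Hsp70 with Hsp90, by 0.14 on the log2 scale, but Stip1 lost its call whichever of the 6 libraries was left out. Ptges3, the Hsp90 co-chaperone p23, fell by 0.18 on the log2 scale, a call that was lost when Dex replicate 2, Dex replicate 3, vehicle replicate 1 or vehicle replicate 2 was left out. The Hsp90 genes Hsp90aa1 and Hsp90ab1 had log2 fold changes of -0.0065 and 0.00083.

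Among called genes that averaged 50 counts or more per library and whose groups did not overlap, the 12 raised most spanned log2 fold changes of 3.44 (Map7d2) to 2.03 (Aldh1a7). Map7d2, which encodes a microtubule-associated protein and lies on the X chromosome (mm10, 159414572 to 159498757, plus strand), was close to silent with vehicle, at 0.623, 0.985 and 0.372 CPM. It reached 8.45, 6.97 and 6.05 CPM with Dex. Mt2, a metal-binding metallothionein on chromosome 8 (94172664 to 94173568), stood at 47.3, 53.1 and 46.6 CPM with vehicle and at 447, 465 and 486 CPM with Dex, a 9.52-fold change (log2 fold change 3.25 ± 0.091 (SE), edgeR adjusted p = 1.65e-20). Groups without overlap were a condition of the selection, and in both genes the gap between them was wide.

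Sorbs2, an adaptor protein of actin structures, rose from 2.24, 3.15 and 1.74 CPM to 18.9, 20.5 and 18.6 CPM. Tent5b, a member of a family of poly(A) polymerases, rose from 8.41, 9.59 and 8.75 CPM to 76.4, 69.6 and 70.8 CPM. The level with Dex was over 8 times that with vehicle in both genes (8.15 and 8.11-fold). Myocd, the myocardin coactivator of serum response factor, rose 6.31-fold, Notch4, a Notch receptor, 5.53-fold, and Ablim3, an actin-binding LIM protein, 5.08-fold, all 3 from under 3 CPM.

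Adamts1, a secreted metalloprotease that cleaves proteoglycans, had the smallest adjusted p of these 12 genes. It stood at 151, 167 and 173 CPM with vehicle and at 759, 734 and 730 CPM with Dex (log2 fold change 2.18 ± 0.056 (SE), edgeR adjusted p = 2.72e-21). Sik1, a salt-inducible kinase, rose from 16.1 ± 0.672 to 67.7 ± 3.54 CPM (mean ± SD, n = 3 each). Gm6093, an intergenic long noncoding RNA on chromosome 13, rose from 0.972 ± 0.317 to 9.39 ± 0.464 CPM. Without vehicle replicate 2 the log2 fold changes of Ablim3 and Map7d2 were 2.79 and 3.83 rather than 2.35 and 3.44, the largest shifts among the raised genes named.

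**Figure D2:**
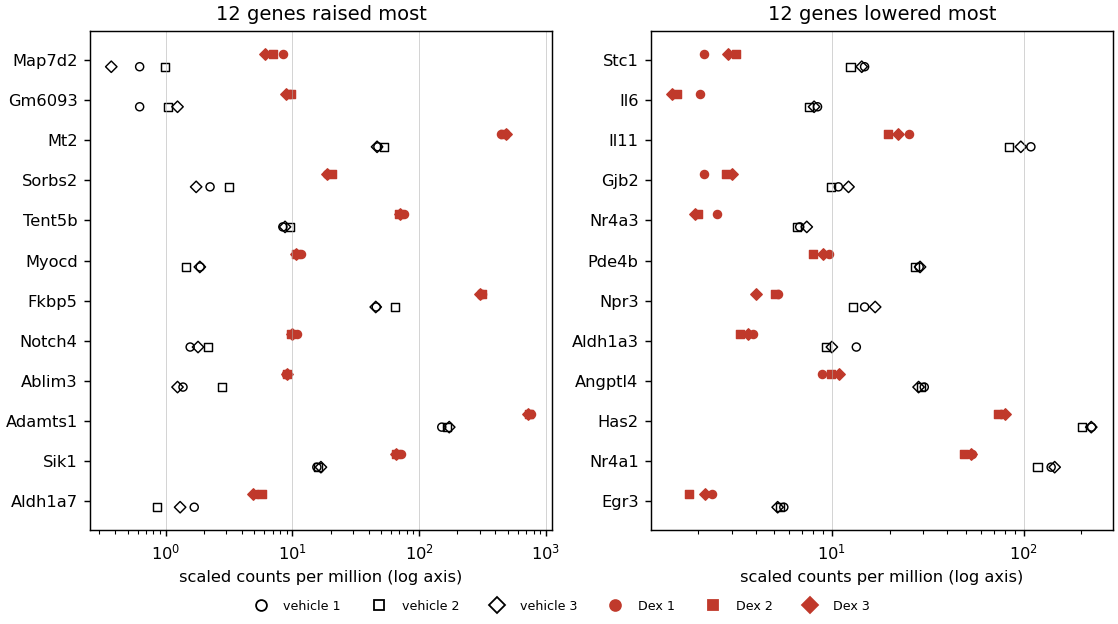
Scaled CPM (log axes) of the 12 genes raised most (left) and the 12 lowered most (right), with open symbols for vehicle and filled symbols for Dex libraries and a shape for each replicate number. The groups are separate for every gene because that was a condition of the selection. The square of vehicle replicate 2 lies toward the Dex values for Fkbp5, Ablim3 and Sorbs2.

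Of 22 tested genes known as GR targets across tissues, 18 rose, 1 fell and 3 did not pass. Their median log2 fold change was 1.07. Over all tested genes 8.13% rose and 6.42% fell. The list was written by hand with earlier results of these data known, which may partly set its count. Tsc22d3, the leucine zipper protein Gilz that restrains inflammatory signalling, stood at 24.1, 28.0 and 22.9 CPM with vehicle and at 89.2, 90.8 and 87.9 CPM with Dex (log2 fold change 1.84 ± 0.067 (SE), edgeR adjusted p = 4.25e-18). Its groups were far apart. Dusp1, the phosphatase that inactivates p38 and JNK, changed far less, from 49.5 ± 2.45 to 62.5 ± 1.83 CPM (mean ± SD, n = 3 each), and rose by 0.34 on the log2 scale without reaching the limit on size. Sgk1, the serum and glucocorticoid-regulated kinase, rose 2.58-fold, and Tgm2, a transglutaminase, rose by 1.38 on the log2 scale. Errfi1, an inhibitor of the EGF receptor, rose by 0.97, Nfkbia, the inhibitor of NF-kB, by 0.63 and Anxa1, annexin A1, by 0.50. Zbtb16, a zinc finger repressor chosen after its values were seen, had 0 counts in all vehicle libraries and 44, 32 and 40 counts with Dex. Against a floor of 3 counts per library it was at least 12.0-fold higher.

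Angptl4, an inhibitor of lipoprotein lipase, was the single member of that list that fell. It stood at 30.3, 29.2 and 28.3 CPM with vehicle and at 8.85, 9.89 and 10.9 CPM with Dex. The values of Cdkn1a, Ddit4 and Gadd45a, at log2 fold changes of 0.016, -0.052 and -0.19, did not pass. Over all 13 alternatives to the main analysis that kept the threshold on adjusted p, 17 to 19 genes of the list rose.

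RefSeq start regions of GRCm38, the assembly named mm10, covering 250 bases before to 50 after a start, could be matched by symbol for 130 raised, 65 lowered and 10849 of all tested genes. The window of Sgk1 is shown because it held the full palindromic GR element, and that of Gm6093 because this noncoding RNA is among the genes raised most. Capitals mark the 15 positions compared with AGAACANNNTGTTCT, on the strand of the gene.
Sgk1, chr10:21993681-21993735, plus strand: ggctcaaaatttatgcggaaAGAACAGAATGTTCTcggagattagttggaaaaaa
Gm6093, chr13:33569484-33569538, minus strand: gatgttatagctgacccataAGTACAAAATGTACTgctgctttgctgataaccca
The match in Sgk1 had 0 differences in 12 bases and began 189 bases before the start, and that in Gm6093 had 2 and began 201 bases before it.

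A match to the full element with at most 2 of its 12 bases different was found in 4.62% of the raised genes, in 0 of 65 lowered genes and in 1.23% of all tested genes. Its core letters ACANNNTGT, which read the same on both strands and are part of the full element, were found in 14.6% of raised, 9.23% of lowered and 5.29% of all tested genes. A single arm, TGTTCT on either strand, was found in 14.6%, 18.5% and 14.7%. The AP-1 letters TGANTCA were found in 13.1% of raised, 12.3% of lowered and 6.47% of all tested genes, and the cyclic AMP element TGACGTCA in 1.54%, 6.15% and 3.53%. These shares are descriptions without a test, and a gene with several starts had several windows.

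Among 11 genes of metallothioneins and zinc transport, 3 rose and 1 fell. Mt1, beside Mt2 on chromosome 8, rose from 107 ± 4.39 to 397 ± 12.2 CPM (mean ± SD, n = 3 each), and Slc39a14, a zinc importer, rose by 0.32 on the log2 scale. Mtf1, the metal-sensing factor that drives metallothioneins, had a log2 fold change of -0.028 and did not pass. Gm45774, annotated antisense to Mt2 and overlapping it, had a log2 fold change of 3.22. The strand setting of the counting is not given in the sources used here, so reads of the 2 genes cannot be told apart, and the same holds for Gm29292 (1.47) over Sphk1. Both noncoding genes were chosen after their values were seen.

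Of 17 clock genes, 7 rose, 3 fell and 7 did not pass. Per1, a repressor of the clock, stood at 28.5, 42.9 and 32.8 CPM with vehicle and at 132, 132 and 127 CPM with Dex. Vehicle replicate 2 was the highest of its group, and the log2 fold change was 2.1 without it and 1.91 with it. Per2, its paralog, rose 3.80-fold and Ciart, another repressor of the loop, 3.02-fold. The repressors Cry1 and Cry2 rose by 0.75 and 0.87 on the log2 scale. Nr1d1, Nr1d2 and Rora, nuclear receptors that bind the promoter of Arntl, had log2 fold changes of -0.47, -0.33 and -0.28 and fell, Rora not without Dex replicate 1. The activators Arntl and Clock had -0.031 and -0.042 and did not pass.

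Of 13 Krueppel-like factors, 6 rose and 0 fell, and their median log2 fold change was 0.13. Klf9 rose from 56.9 ± 3.23 to 118 ± 1.49 CPM, Klf12 from 11.6 ± 1.01 to 23.7 ± 1.46 CPM and Klf15 from 1.27 ± 0.451 to 4.14 ± 0.56 CPM (mean ± SD, n = 3 each). Klf5, Klf6 and Klf13 rose by under 0.5 on the log2 scale. With only the 6 libraries in the fit, 2 members of the list fell.

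The 12 genes lowered most, by the same rule, spanned log2 fold changes of -2.35 to -1.34. Stc1, the secreted glycoprotein stanniocalcin 1, stood at 14.8, 12.5 and 14.3 CPM with vehicle and at 2.16, 3.17 and 2.88 CPM with Dex (log2 fold change -2.35 ± 0.14 (SE), edgeR adjusted p = 9e-14). Il6, the cytokine interleukin 6, stood at 8.41, 7.62 and 8.07 CPM with vehicle and at 2.04, 1.56 and 1.47 CPM with Dex. Il11, which signals through the same gp130 receptor chain, stood at 109, 83.8 and 96.6 CPM with vehicle and at 25.2, 19.5 and 22.2 CPM with Dex. In all 3 genes the lowest vehicle value was more than 3 times the highest Dex value.

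Gjb2, the gap junction protein connexin 26, fell from 11.0 ± 1.14 to 2.65 ± 0.44 CPM. Pde4b, a cyclic AMP phosphodiesterase, fell from 28.2 ± 0.832 to 8.87 ± 0.846 CPM, and Npr3, the clearance receptor of natriuretic peptides, from 14.9 ± 1.94 to 4.75 ± 0.661 CPM (mean ± SD, n = 3 each). Aldh1a3, a retinaldehyde dehydrogenase, was 3.02-fold lower. Nr4a3, Nr4a1 and Egr3, transcription factors of the immediate early response, were 3.21, 2.57 and 2.53-fold lower.

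Of 20 cytokines and chemokines, 1 rose, 8 fell and 11 did not pass, with a median log2 fold change of -0.41. Besides Il6 and Il11, Cx3cl1, the membrane-bound chemokine fractalkine, was lowered from 31.1 ± 2.67 to 13.2 ± 2.00 CPM (mean ± SD, n = 3 each). Ccl2, the monocyte chemokine, was lowered by the same thresholds, with a log2 fold change of -1.14, and Ccl7, Lif, Cxcl16 and Cxcl14 fell by less than the limit on size. Cxcl12, which attracts lymphocytes and stem cells, rose by 0.43 on the log2 scale, but not without Dex replicate 2 or Dex replicate 3. Csf1, the macrophage growth factor, had a log2 fold change of -0.0031, and Cxcl1 and Cxcl10 did not pass.

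Of 17 inflammatory enzymes and adhesion molecules, 1 rose, 7 fell and 9 did not pass. Ptgs2, the inducible cyclooxygenase, stood at 1053, 966 and 1061 CPM with vehicle and at 486, 467 and 464 CPM with Dex (log2 fold change -1.12 ± 0.055 (SE), edgeR adjusted p = 3.47e-15). All vehicle values lay above all Dex values. Ch25h, cholesterol 25-hydroxylase, was 5.40-fold lower at a low level of 3.43 CPM with vehicle. Plau, the urokinase protease, fell by 0.95 and Vcam1, an adhesion molecule for leukocytes, fell by 0.80 on the log2 scale. The 1 gene that rose was Il1rl1, the receptor of interleukin 33, with a log2 fold change of 0.38. Saa3, at 0.96, did not pass (adjusted p = 0.2 from edgeR).

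Of 13 NF-kB subunits and inhibitors, Nfkbia rose, 5 fell and 7 did not pass. Those that fell were Nfkbiz (log2 fold change -0.93), Bcl3 (-0.83), Relb (-0.71), Nfkbie (-0.56) and Nfkb1 (-0.21), of which Nfkbiz and Bcl3 encode nuclear IkB proteins. Without vehicle replicate 3, 3 members fell, as Bcl3 and Nfkbie then did not pass. Rela, the main activating subunit, had a log2 fold change of -0.054.

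Of 19 AP-1 and immediate early genes, 2 rose, 10 fell and 7 did not pass. Nr4a1 stood at 139, 118 and 145 CPM with vehicle and at 53.9, 49.1 and 53.2 CPM with Dex. Nr4a2 fell from 13.7 ± 0.605 to 5.65 ± 0.793 CPM (mean ± SD, n = 3 each), and Egr1 and Egr2 had log2 fold changes of -0.65 and -0.96. Of the AP-1 subunits, Jun (-0.41) and Fosl2 (-0.48) fell and Fos (0.75) rose, while Junb (0.0017), Fosl1 (-0.0037) and Fosb (-0.045) did not pass.

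Feedback inhibitors of MAP kinase signalling were counted next. Of 16 MAP kinase phosphatases and Sprouty genes, Dusp1 rose, 9 fell and 6 did not pass, and 0 passed the limit on size. Spry2, an inhibitor of growth factor receptor signalling, fell from 60.0 to 35.9 CPM (group means, n = 3 each), Dusp10 from 20.8 to 13.6 CPM and Dusp4 from 250 to 179 CPM. Of 12 EGF receptor ligands and feedback genes, 2 rose and 6 fell. The ligand Tgfa rose 2.49-fold, to 3.74 ± 0.291 CPM, and the ligand Areg fell from 2.09 ± 0.79 to 0.801 ± 0.231 CPM (mean ± SD, n = 3 each). The ligands Hbegf, Nrg1 and Ereg and the receptor Egfr fell by 0.24 to 0.60 on the log2 scale.

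Genes of fuel use moved in both directions. Of 21 genes of fuel metabolism and FoxO signalling, 8 rose, 3 fell and 10 did not pass. Pdk4, the kinase that switches off pyruvate dehydrogenase, stood at 5.86, 5.58 and 4.66 CPM with vehicle and at 19.3, 19.4 and 19.1 CPM with Dex (log2 fold change 1.85 ± 0.098 (SE), edgeR adjusted p = 1.7e-14). Its relatives Pdk1, Pdk2 and Pdk3 did not pass, with values of -0.041, 0.18 and -0.087. Irs2, an adaptor of the insulin receptor, rose from 30.8 ± 3.96 to 68.7 ± 1.74 CPM and Glul, glutamine synthetase, from 17.7 ± 2.47 to 37.4 ± 3.20 CPM (mean ± SD, n = 3 each). The muscle ubiquitin ligase gene Fbxo32, a FoxO target, fell by 0.80 on the log2 scale.

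Of 18 adipogenic regulators and adipocyte genes, 7 rose and 0 fell. Fabp4, a fatty acid carrier of adipocytes, rose from 3.87 ± 0.625 to 14.3 ± 1.71 CPM (mean ± SD, n = 3 each), and Cebpa, Cebpb and Cebpd, factors that start adipocyte differentiation, rose by 0.46 to 0.70 on the log2 scale. Pparg, their main downstream factor, had a log2 fold change of 0.33 and did not pass (adjusted p = 0.15 from edgeR). In other settings of the analysis up to 3 members of that list fell. Of 19 genes of sterol and fatty acid synthesis, 8 rose by 0.16 to 0.37 on the log2 scale and 0 fell, and without Dex replicate 2 the number that rose was 5.

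Of 15 genes of retinoic acid synthesis and signalling, 4 rose and 2 fell. Aldh1a7, at 1.68, 0.854 and 1.30 CPM with vehicle and 5.28, 5.73 and 4.88 CPM with Dex, and Aldh1a1, 2.81-fold higher, are neighbours on chromosome 19 and close paralogs, so their unique reads are uncertain. Cyp26b1, which degrades retinoic acid, rose 2.41-fold, while Aldh1a3, which makes it, fell.

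Has2, the main hyaluronan synthase of fibroblasts, stood at 226, 202 and 225 CPM with vehicle and at 75.8, 73.7 and 80.2 CPM with Dex (log2 fold change -1.51 ± 0.059 (SE), edgeR adjusted p = 1.64e-17). Its paralog Has1 fell from 1.86 ± 0.164 to 0.220 ± 0.135 CPM (mean ± SD, n = 3 each), and Cd44, the hyaluronan receptor, fell by 0.28 on the log2 scale. Vcan, versican, rose by 0.53. Of the 11 genes of that list, 7 did not pass.

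Of 21 collagen chains, 8 rose, 2 fell and 11 did not pass, with a median log2 fold change of 0.053. Col11a1, a chain of a fibrillar collagen, stood at 143, 175 and 159 CPM with vehicle and at 587, 591 and 582 CPM with Dex, a 3.69-fold change with separate groups. No other chain passed the limit on size, and the main fibrillar chains Col1a1 and Col1a2 had log2 fold changes of 0.036 and 0.024. The count of 8 depends on single libraries, since it was 3 without vehicle replicate 1, 4 without Dex replicate 2 or Dex replicate 3 and 5 without vehicle replicate 2. Of 21 matrix proteases and inhibitors, 5 rose and 5 fell, and without vehicle replicate 1 the number that rose was 3. Mmp10, stromelysin 2, fell from 15.4 ± 1.04 to 7.17 ± 1.32 CPM (mean ± SD, n = 3 each), and the inhibitors Timp1 and Timp3 fell by 0.28 and 0.61 on the log2 scale.

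Of 25 regulators of BMP and TGF-beta signalling, 8 rose and 6 fell, and 5 rose without vehicle replicate 1 or vehicle replicate 3. Tgfbr3, the co-receptor betaglycan, rose from 26.9 ± 3.25 to 54.9 ± 4.76 CPM (mean ± SD, n = 3 each), and Tgfb2, a TGF-beta ligand, rose by 0.89 on the log2 scale. Inhba, the subunit of activin A, fell by 0.95 and the BMP antagonist Grem1 fell by 0.60, while Fst, the activin antagonist follistatin, rose by 0.84. Gdf15, a stress cytokine of the family, had a log2 fold change of -1.07. Of 19 Wnt ligands and antagonists, 4 fell and 0 rose, with Lgr5, the R-spondin receptor, lowered to 2.41 ± 0.476 CPM (mean ± SD, n = 3; log2 fold change -1.11).

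Of 19 angiogenic factors, 8 rose and 3 fell, and 0 passed the limit on size. Vegfa, the main endothelial growth factor, fell from 183 to 98.9 CPM and Hgf, hepatocyte growth factor, from 8.19 to 4.16 CPM, while Vegfc rose from 26.9 to 48.1 CPM and Ccn2, connective tissue growth factor, from 2274 to 3344 CPM (group means, n = 3 each). Of 12 insulin-like growth factors and binding proteins, 1 rose and 2 fell, small counts beside shares of 8.13% and 6.42% over all tested genes. Igfbp5 had a log2 fold change of -0.45, and with single libraries left out 0 or 1 rose and 1 to 3 fell.

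Of 12 cyclic AMP phosphodiesterases, 1 rose and 6 fell, with a median log2 fold change of -0.31. Besides Pde4b, Pde8b fell by 0.82 and Pde4d by 0.56 on the log2 scale. Pde10a, the 1 member that rose (0.19), did not pass when any of 5 libraries was left out. Of the members that fell, Pde7a also lost its call with any of 5 libraries left out, and Pde7b with any of the 6. With single libraries left out, 4 or 5 members fell. Of 8 genes of sphingosine-1-phosphate, Sphk1, the kinase that makes it, stood at 49.2, 52.4 and 43.4 CPM with vehicle and at 164, 158 and 159 CPM with Dex. S1pr1, a receptor for it, stood at 63.0, 53.9 and 62.6 CPM with vehicle and at 24.6, 23.4 and 24 CPM with Dex. The kinase and this receptor thus moved in opposite directions, and the receptor S1pr3 fell by 0.30 on the log2 scale, a call that was lost without Dex replicate 1 or vehicle replicate 2.

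Of 9 gap junction genes 2 fell, Gjb2 as given above and Gja1, connexin 43, which fell by 0.65 on the log2 scale. Of 16 contractile genes 3 rose, 0 fell and 13 did not pass, Tagln, Cnn1 and Myh11 among the last. Acta2, smooth muscle actin, had a log2 fold change of 0.13, a call lost without Dex replicate 1, 2 or 3 or vehicle replicate 2. Myocd, named above as raised, is a known activator of such genes, but a link between them was not tested here. Of 24 cell cycle genes, Cdkn1c (0.77), Ccnd1 (0.55) and Ccnd3 (0.25) rose and 0 fell, and Mki67, the proliferation marker, had -0.012. Of 17 interferon-stimulated genes 1 rose and 2 fell. The 1 that rose, Ifit2 (0.28), is a call that was not made without Dex replicate 1, vehicle replicate 1 or vehicle replicate 3. The counts of the cell cycle and interferon lists are small beside shares of 8.13% that rose and 6.42% that fell over all tested genes.

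**Figure D3:**
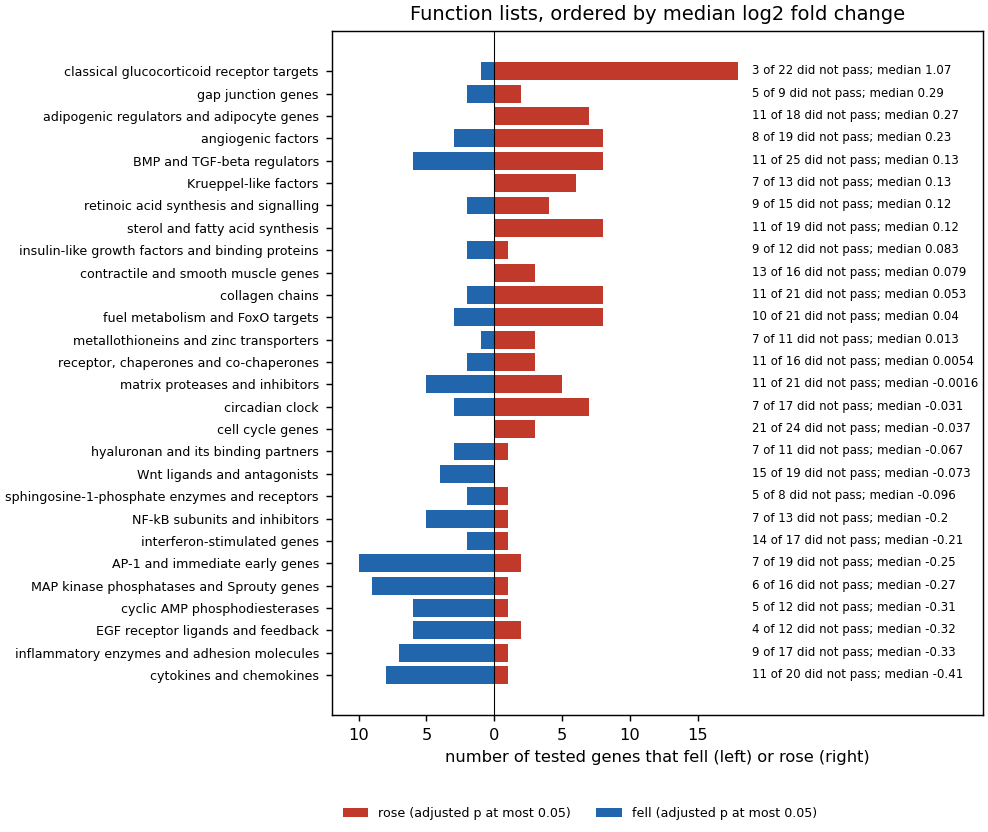
For each of 28 lists of genes by function, the bars give the number of tested members that rose (right, red) or fell (left, blue) at an adjusted p of at most 0.05, and the text gives the members that did not pass and the median log2 fold change. The known GR targets have 18 of 22 members on the right, and the cytokines, inflammatory enzymes and immediate early genes lie mainly on the left. Over all tested genes 8.13% rose and 6.42% fell. The lists were written with earlier results of these data known, which may partly set these counts.

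The GRko/ko libraries of run 1 measured what the same treatment did without the receptor. Nr3c1 stood at 15.4, 17.2 and 15.1 CPM with vehicle and at 16.1, 16.6 and 19.5 CPM with Dex there, all below the GRwt/wt values given above. In GRko/ko, 0 genes passed the adjusted p of 0.05 in edgeR, the smallest adjusted p was 0.597, and 832 genes had an unadjusted p under 0.05. The median log2 fold change in GRko/ko was -0.025 over the 183 raised genes and 0.06 over the 110 lowered genes. Mt2, for example, stood at 33.4, 32.1 and 33.3 CPM with vehicle and at 34.9, 30.5 and 35.0 CPM with Dex, values that overlap.

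The response of GRwt/wt differed from that of GRko/ko in 1348 genes at an adjusted p of at most 0.05 (9.1% of those tested, interaction test of edgeR), higher in GRwt/wt for 753 and lower for 595. Among them were 139 of the 183 raised and 77 of the 110 lowered genes. Among genes that averaged 50 counts or more, 98 of 101 and 33 of 33 were found. The raised and lowered genes were selected on the same GRwt/wt values that enter this difference. High shares were therefore largely set by the selection. Among the 3 raised genes of that level whose difference did not pass was Mpzl2, an adhesion protein chosen after its values were seen, with a log2 fold change of 1.39 in GRwt/wt and of 1.72 (standard error 0.94) in GRko/ko. The difference of the Nr3c1 response itself was -0.65 on the log2 scale (standard error 0.10, adjusted p = 4.09e-05 from edgeR).

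**Figure D4:**
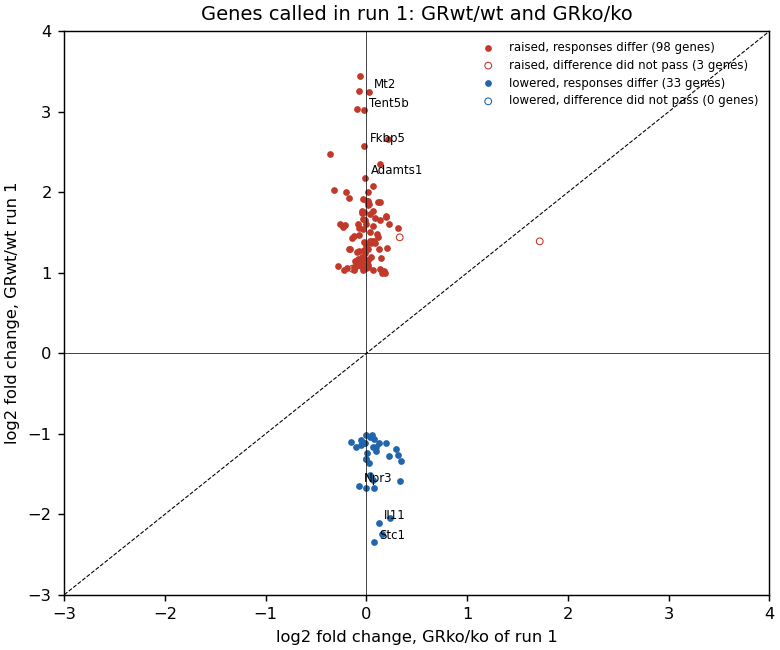
Log2 fold changes of Dex against vehicle in GRko/ko (x axis) and in GRwt/wt of run 1 (y axis) for the called genes that averaged 50 counts or more, with filled points where the responses differ at an adjusted p of at most 0.05 and a dashed line of equality. The points form a vertical band around 0 in GRko/ko, and 98 of 101 raised and 33 of 33 lowered genes are filled. The genes were selected on the same GRwt/wt values that enter the difference, which largely sets these shares.

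GRwt/wt libraries of run 2, which share no library with run 1, called 378 raised (2.44%) and 317 lowered (2.05%) of 15489 genes by the same thresholds. Of the genes raised in run 1, 120 were also raised in run 2, which is 65.6% of the run 1 list and 31.7% of the run 2 list. Of the genes lowered in run 1, 54 were also lowered in run 2, 49.1% and 17.0% of the lists. Among genes that averaged 50 counts or more the numbers were 73 of 101 and 23 of 33. Without the limit on size, 98 of those 101 raised genes rose in run 2 and 31 of the 33 lowered genes fell. The matching share over all tested genes of run 2 without that limit is not given here. The run 2 libraries held 23575462 to 25587265 counts, and run, depth and sex cannot be told apart here.

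The response differed between the runs in 1098 genes (7.09% of those tested, interaction test of edgeR), more positive in run 1 for 603 and less for 495. Of the raised genes 59 differed, and the change was larger in run 1 in 30 and smaller in 29. Of the lowered genes 24 differed, larger in run 1 in 12 and smaller in 12. Levels in both runs are given next on the scaling over all 36 libraries, which differs slightly from the CPM above.

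Some genes responded mainly in run 1. Sorbs2 stood at 2.34, 3.29 and 1.82 CPM with vehicle and at 19.7, 21.4 and 19.4 CPM with Dex in run 1. In run 2 it was already at 16.0, 15.5 and 14.9 CPM with vehicle and reached 20.2, 21.3 and 24 CPM. The Dex levels were thus close in both runs and the vehicle levels were not, and the difference of the responses was 2.53 on the log2 scale (standard error 0.20, adjusted p = 7.47e-12 from edgeR). In GRko/ko of run 1, Sorbs2 stood at 23.3 to 25.1 CPM with vehicle. Stc1 had a log2 fold change of -2.35 in run 1 and of -0.21 in run 2, where its vehicle level was 5.78, 6.27 and 7.02 CPM against 15.4, 13.1 and 14.9 CPM in run 1. Npr3 had -1.65 in run 1 and 0.27 in run 2. The responses of Stc1 and Npr3 differed by -2.13 and -1.91 (edgeR adjusted p = 4.36e-11 and 1.4e-10).

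Several known GR targets responded less in run 1. Tsc22d3 reached 92.9, 94.6 and 91.9 CPM with Dex in run 1 and 438, 394 and 376 CPM in run 2, from vehicle levels of 23.9 to 29.2 and 32.6 to 35.8 CPM, and the responses differed by -1.73 on the log2 scale (standard error 0.094, adjusted p = 2.37e-15 from edgeR). Pdk4 reached at most 20.2 CPM in run 1 and 88.3, 95.8 and 96.7 CPM in run 2, with vehicle levels of 4.87 to 6.10 and 5.47 to 6.02 CPM (difference -2.17). Dpep1, a dipeptidase outside the list of GR targets and named for its difference between runs, had log2 fold changes of 1.30 and 3.48 (difference -2.18).

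Has2 and Tnfrsf11b, the decoy receptor osteoprotegerin, were lowered less in run 1 as well. Tnfrsf11b stood at 140, 122 and 142 CPM with vehicle and at 66.0, 64.2 and 66.1 CPM with Dex in run 1, and at 43.1 to 44.0 and 8.17 to 8.24 CPM in run 2. The difference of the responses was 1.36 for Tnfrsf11b and 1.18 for Has2. Values in both runs were closer for Tent5b (3.02 and 3.23), Per1 (1.91 and 2.01), Klf9 (1.05 and 1.24), Fabp4 (1.88 and 1.81) and S1pr1 (-1.32 and -1.35). Their differences did not pass, and that of S1pr1 was 0.029 with a standard error of 0.096.

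**Figure D5:**
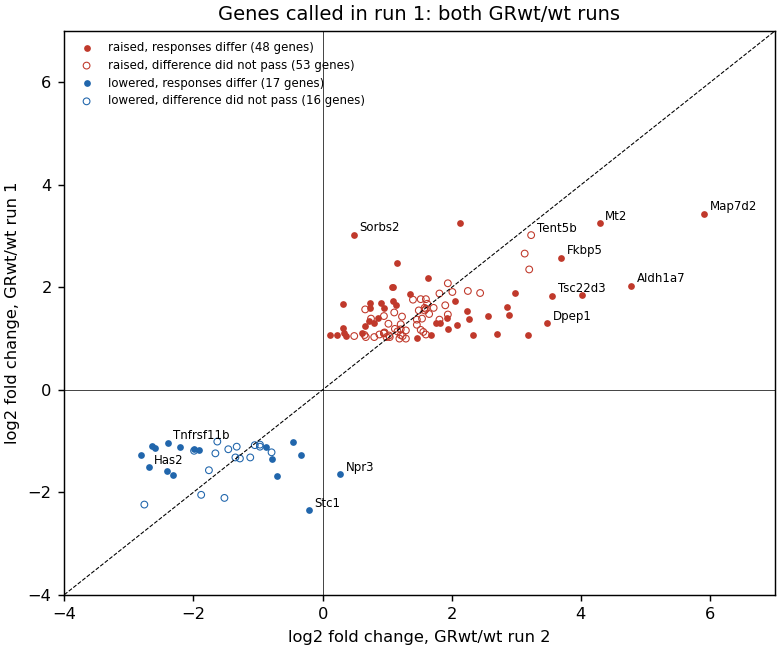
Log2 fold changes of Dex against vehicle in GRwt/wt of run 2 (x axis) and run 1 (y axis) for the genes called in run 1 that averaged 50 counts or more, with filled points where the responses differ at an adjusted p of at most 0.05 (48 of 101 raised and 17 of 33 lowered genes) and a dashed line of equality. Sorbs2, Stc1 and Npr3 lie near 0 on the run 2 axis, and Tsc22d3, Dpep1 and Aldh1a7 lie below the line.

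Called genes that are next to each other on a chromosome, with no tested gene between them, were listed as well. Besides Mt2 and Mt1, 5514 bases apart, and Aldh1a1 and Aldh1a7, 49488 bases apart, raised neighbours were Cyb561, a cytochrome, and Ace, angiotensin-converting enzyme (log2 fold changes 1.36 and 1.92). Lowered neighbours were Ptgs2, Gm9687 (-2.54) and the noncoding RNA Ptgs2os2, of which the last stood at 22.9, 20.2 and 18.9 CPM with vehicle and at 9.25, 8.84 and 9.17 CPM with Dex (log2 fold change -1.19). Cyb561, Ace, Gm9687 and Ptgs2os2 were chosen after their values were seen.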

How the data were processed

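The read counts were deposited by the authors as 1 table of 55487 genes by 36 libraries. Per the labels and the study's methods, reads were aligned to mm10 with HISAT2 2.1.0 and unique reads were counted per gene with featureCounts 2.0.0, without normalization. The annotation and the strand setting are not given in the sources used here. Reads not counted uniquely would lower genes with near-identical copies. Groups came from the labels.

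Counts were fitted with edgeR 4.0.16 (R 4.3.3), with TMM scaling, filterByExpr and the quasi-likelihood test, over the 24 libraries of run 1 in 8 groups, in contrast to the study's DESeq2 model over both runs. Standard errors were taken as the fold change over the root of its F statistic. Genes were called at a Benjamini-Hochberg adjusted p of at most 0.05 with a log2 fold change of 1 or more in either direction. The difference from GRko/ko was an interaction in that fit, and the difference between runs an interaction over 36 libraries in 12 groups. A fold limit on the point estimate is not a test against that fold. The edgeR and DESeq2 fits were tested on simulated counts.

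Genes were named by rule: the 12 raised and 12 lowered most with at least 50 counts on average and separate groups, Nr3c1, Tsc22d3, Fkbp5 and Dusp1, up to 3 called members per function list and direction with the smallest adjusted p, and the 3 called genes per direction with the smallest adjusted p of the difference between runs. The 28 function lists and 8 marker lists were written by hand. Members, lists and rules were chosen with earlier results of these data known. Alternatives were DESeq2 1.42.0, its size factors, no filter, a filter of 10 counts in every library, all 36 or only the 6 libraries, a replicate block and each library left out. Start regions came from RefSeq (GRCm38.p6) and were matched by symbol.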

Additional observations from a re-analysis of the deposited data

Results flagged for a closer look

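The Dex response differed between the GRwt/wt libraries of run 1 and run 2 in 1098 of 15489 genes, at an adjusted p of at most 0.05 of the interaction in edgeR. The named genes with the smallest adjusted p of that difference, given as run 1 minus run 2 on the log2 scale, were Sorbs2 (2.53), Tnfrsf11b (1.36) and Has2 (1.18) on the positive side and Tsc22d3 (-1.73), Pdk4 (-2.17) and Dpep1 (-2.18) on the negative side. Sex, depth and run cannot be told apart in these differences.

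The response differed between GRwt/wt and GRko/ko of run 1 in 1348 genes, where sex, and strain if the knockout mice were on the background the methods give, cannot be told apart from genotype.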

How the results depend on the processing

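Against 293 calls, 151 genes (101 raised and 50 lowered) were called when at least 10 counts were required in every library. Of these 150 were among the 293, of which that filter left 142 untested. With the adjusted p alone the number was 2155 (1204 raised and 951 lowered). Leaving out 1 library of the 6 at a time gave 255 to 301 calls, 167 to 205 raised and 82 to 106 lowered. It also gave 1071 to 1306 genes that differed from GRko/ko and 835 to 1051 that differed between runs. The DESeq2 fit called 236 genes, of which 234 were among the 293, and gave no adjusted p for 53 of them. The filter of 10 counts in every library left some genes named by rule untested, such as Has1 and Map7d2. In the alternatives that gave it a result, no gene named by rule reversed its direction or crossed the threshold on adjusted p. Some genes named by rule fell short of the limit on size in at least 1 alternative. Their smallest log2 fold changes were 0.97 for Klf12, 0.96 for Tgfbr3, -0.98 for Mmp10, -0.94 for Lgr5 and -0.9 for Gdf15. The list members Stip1, Pde10a, Pde7a, Pde7b, Acta2, Ptges3, Ifit2, Cxcl12, S1pr3, Bcl3, Nfkbie and Rora each lost the call without at least 1 library. Raised genes were 62.5% of calls, and 62.0 to 68.5% in the alternatives that kept the limit on size. With the replicate number as a block (replicate block) 285 genes were called, 278 of them among the 293. The numbers were not shown to pair the cultures, since same-numbered vehicle and Dex libraries had correlations of 0.0441, -0.0324 and -0.0422 of their deviations from the group means. Low counts limit the 159 called genes that averaged under 50 counts.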
